A study of Mus musculus with 3 samples.

Results

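The cells described here carry the authors' name Macrophages/APCS, a class of mononuclear phagocytes and antigen presenting cells of the mouse anorectal junction, the border between the glandular lining of the rectum and the skin-like lining of the anus. They are 413 of 37080 cells (1.11%) and were chosen by that deposited name alone, which covers 1 cluster of the authors (number 19). All mice were wild-type C57Bl/6, bought at 6 weeks of age. The day 0 library came from untreated mice, whereas the day 7 and day 42 libraries came from mice that drank 3% dextran sulfate sodium (DSS), which damages the epithelium of the large bowel, during the first 6 days. Each library is a single pool of distal colon and anus from 5 mice, dissected when unchallenged (day 0), highly colitic (day 7) or recovered (day 42). The days contributed 91, 278 and 44 myeloid cells in turn. Values given in threes below are for days 0, 7 and 42, in that order. With 1 pool per day, no difference between days could be tested, and every interval below covers counting error only, not variation between mice.

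Macrophages in the intestine are scavenging cells that make complement C1q and present antigen on MHC class II, and most of them are replaced throughout life by monocytes, which enter from the blood and mature in the tissue. Conventional dendritic cells, a separate lineage, take up antigen, migrate to lymph nodes and prime T cells, and they too carry high MHC class II. During DSS colitis, monocytes and neutrophils are known to enter the injured colon in large numbers, and monocytes that arrive in inflamed tissue make interleukin 1, prostaglandins and chemokines.

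The myeloid cells held 393547, 1326423 and 131561 unique molecular identifiers (UMIs, counted RNA molecules), with medians per cell of 4173, 4913 and 2677. Expression is given as CPM, the usual scale on which a gene's UMIs are divided by all UMIs, here those of the day's myeloid cells, and multiplied so that the levels of all genes sum to 1e6. On it, 1 UMI equals 2.54, 0.754 and 7.60 CPM. In such sums, fewer cells of a type and less RNA per cell cannot be told apart. RNA of other cells was present in these droplets. The summed level of 9 keratinocyte markers in the myeloid cells was 183, 1343 and 730 CPM, and that of 12 neutrophil markers was 119, 5341 and 357 CPM. At day 7, 7 of the 9 keratinocyte markers and 11 of the 11 measured neutrophil markers were higher than at day 0 by the ratio used below. The 6 fibroblast markers summed to 638, 64.8 and 7.60 CPM, and the 10 colonocyte markers to 320.2, 204 and 236 CPM. The part of this RNA in the results was not tested. None of the 4 melanocyte markers had a UMI. The 11 T cell and innate lymphocyte markers summed to 94.0, 91.2 and 122 CPM, with 6, 6 and 10 of them at 0, among them Cd3e, Cd3d and Lck on all 3 days, while Il7r had 22, 109 and 16 UMIs. The 9 B and plasma cell markers summed to 193, 27.1 and 213 CPM, with 3, 6 and 5 at 0, Cd79a and Ms4a1 throughout, while Ighm had 32, 25 and 19 UMIs. The 9 mast cell markers summed to 15.2, 83.7 and 60.8 CPM, with 7, 7 and 8 at 0, Cpa3, Mcpt4 and Tpsb2 throughout, while Hdc, which neutrophils also express, had 1, 91 and 0 UMIs. Barcodes shared between libraries numbered 139, and 6 myeloid cells had a barcode that occurs in another library.

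The markers given for these cells were present in all 3 libraries. Lyz2, the lysozyme of phagocytes, stood at 9435, 7030.2 and 2660.4 CPM. Csf1r, the receptor for the growth factor of monocytes and macrophages, stood at 391, 351 and 205 CPM, with overlapping intervals at days 0 and 7. Adgre1, which encodes F4/80, stood at 152, 81.4 and 76.0 CPM. Cd74, the invariant chain of MHC class II, stood at 21766, 6429 and 18851 CPM, so it was lowest at day 7. C1qa stood at 1849.8, 263 and 654 CPM and C1qb at 1626, 285 and 661 CPM, both lowest at day 7. C1q was detected in a minority of the cells sampled on each day. A UMI of C1qa, C1qb or C1qc was present in 37 of 91, 46 of 278 and 10 of 44 cells. The shares were 40.7% (95% exact binomial interval 30.5 to 51.5), 16.5% (12.4 to 21.4) and 22.7% (11.5 to 37.8), and 42.3%, 12.5% and 15.8% after thinning to 1000 UMIs a cell. In T cells, which should lack these genes, the shares were 1 of 219, 1 of 118 and 0 of 121, at median depths of 2064, 2260 and 1393 UMIs (0 of 121 allows a share of up to 3.00%). C1q was thus detected in a minority of the cells, with the day 0 interval reaching 51.5%. A cell without a UMI of it may still hold its RNA.

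Over all 3 days, the genes that set these cells furthest above every other cell class were the MHC class II genes H2-Eb1, H2-Ab1, H2-Aa and Cd74, followed by Ms4a6c, Aif1, C1qa, C1qb, Pld4 and H2-DMb1. The next 10 were C1qc, Ly86, Trem2, Ms4a6d, Gm6377, H2-DMa, Cd86, Ms4a7, Cybb and Rassf4. The authors' clusters were made from the expression of these same cells, so this order describes the class and tests nothing. The 3 C1q genes lie side by side on chromosome 4 of mm10 (C1qb 136880129 to 136886187, C1qc 136889804 to 136893065 and C1qa 136895917 to 136898803, all on the minus strand). H2-Ab1 (34257689 to 34269419), H2-Aa (34282744 to 34287823) and H2-Eb1 (34305867 to 34316674) lie next to each other on chromosome 17. The counts are of whole genes from 3′ libraries and do not separate isoforms.

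The myeloid cells made up 0.824% (interval 0.664 to 1.01), 1.93% (1.71 to 2.17) and 0.377% (0.274 to 0.506) of the libraries. The share was highest at day 7 and lowest at day 42, and the 3 intervals did not overlap. Among leukocytes the order was different. Macrophages/APCS cells were 28.4%, 14.5% and 7.06% of all leukocytes, while neutrophils numbered 5, 1513 and 448 cells. Trypsin digestion and the removal of dead cells by Annexin V can set such shares, and their part in them was not tested.

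Clustered among themselves, the 413 cells gave 6 sub-clusters. Sub-cluster 1 was monocyte-like, led by Chil3, a chitinase-like protein of inflammatory myeloid cells, with 6 of 8 monocyte markers past a log2 ratio of 1 over the other myeloid cells (Chil3, Plac8, Hp, Vcan, F13a1 and Ly6c2). Its Chil3 level was 4644 CPM, and it held 4, 140 and 7 cells on the 3 days. Sub-cluster 4 was macrophage-like, with 7 of 10 macrophage markers past that ratio. Its C1qa level was 4419 CPM against 116 in the other myeloid cells, and 93.3% of its cells had a UMI of C1qa. Its cells numbered 32, 8 and 5. The share of all genes past that ratio was not counted for any sub-cluster, so these marker counts stand without a background.

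Sub-cluster 2 was led by Ccl17, Klrd1 and Ccr7 and was left without a name because it mixed the markers of several dendritic cell types. It passed the ratio for 8 of 9 markers of conventional type 1 dendritic cells, 6 of 8 of Langerhans cells, 6 of 9 of mature dendritic cells, 5 of 9 of type 2 and 5 of 7 of plasmacytoid dendritic cells. Xcr1, the chemokine receptor that marks type 1 dendritic cells, had 24 UMIs in sub-cluster 2 and 0 in the other 5. Lyz2 was at 292 CPM in sub-cluster 2 and 9247 CPM in sub-cluster 4. Cd74 was high in both, at 20813 and 23007 CPM. Sub-cluster 2 held 30, 46 and 25 cells on the 3 days. Mki67, a gene of cycling cells, was at 189 CPM in sub-cluster 2, with a UMI in 22.8% of cells. In the other sub-clusters it ranged from 9.04 CPM in sub-cluster 1 to 46.4 in sub-cluster 5 and 68.1 in sub-cluster 4.

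Sub-cluster 3 (22, 33 and 6 cells) was left without a name. The genes that led it, Ctsk, Mmp9 and Retnla, lay in at most 4.92% of its cells, and 1 cell held all 101 of its Ctsk UMIs. Further down, Acp5 was in 36.1% of its cells, but that same cell held 248 of the sub-cluster's 312 Acp5 UMIs. Clec4a2 was in 45.9% and Mrc1 in 29.5% of the sub-cluster's cells. Sub-cluster 5, 28 cells that all came from day 7, was led by Retnlg, Nos2, Cxcl3, Csf3 and Ccl4, and it passed the ratio for 10 of 12 neutrophil markers. Its level of S100a9, a subunit of calprotectin, was 12624 CPM, against 127202 CPM in the neutrophils of that library, so it was left without a name. Sub-cluster 6 (3, 23 and 1 cells) was led by Saa1, Dcn and Col3a1 and carried 6 of 6 fibroblast, 9 of 9 keratinocyte and 7 of 10 colonocyte markers past the ratio, and it was also left unnamed. For genes whose day 7 UMIs lay largely in sub-cluster 5, that number or the value without sub-clusters 5 and 6 is given below. Sub-cluster 4 stayed nearly the same set of cells in the 3 alternative clusterings (Jaccard index 0.826 to 1). Sub-cluster 2 did so at a coarser resolution (0.990) but was split at a finer one (0.426), and sub-cluster 1 matched less well in both (0.687 and 0.353). The genes that define the sub-clusters themselves differ between days, so their sizes describe the cells and are no independent measure of a change in cell number.

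**Figure D1:**
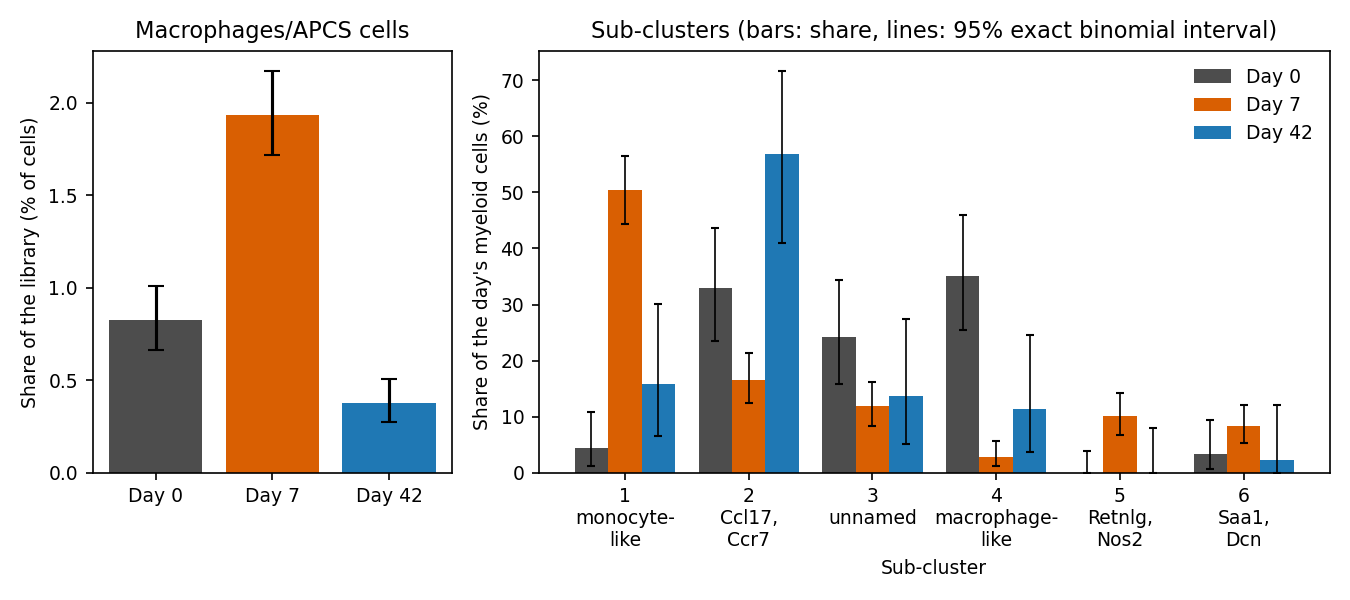
Left, Macrophages/APCS cells as a percent of each library, 1 library of 5 pooled mice per day. Right, share of each day's myeloid cells in each of the 6 sub-clusters. Bars are shares and lines 95% exact binomial intervals. The share of the library is highest at day 7 (1.93%), and sub-cluster 1 holds 50.4% of the cells at day 7 but 4.40% at day 0, while sub-cluster 4 holds 35.2% at day 0 and 2.88% at day 7.

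The question the design poses for these cells is how they differ between colitic, unchallenged and recovered tissue. Days were compared where each held at least 50 cells, which leaves day 7 against day 0. Day 42, with 44 cells, is given as levels only. Among 6029 genes of at least 20 CPM in either library, 331 (5.49%) were higher at day 7 by a log2 ratio of 1 or more, after adding 10 CPM to both sides, and 560 (9.29%) were lower. The median over all these genes was -0.13. With median-of-ratios scaling the median was 0.056 and the counts were 433 higher and 410 lower, so the split between higher and lower genes depends on the scaling. Without sub-clusters 5 and 6 the counts were 306 and 508. Without the 31 and 250 cells that carry UMIs of other classes, 833 were higher and 1359 lower. That leaves out 34.1% and 89.9% of the cells, so fewer than 50 remain at day 7. The markers used include Trem1 and Il1r2, with a UMI in 45.0% and 43.2% of day 7 myeloid cells. The rule therefore cannot separate a myeloid cell's own RNA from that of other cells. Because no sub-cluster had 50 cells on both days, a difference below can be a difference in which cells were sampled as well as a difference within a cell, and these cannot be told apart here.

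**Figure D2:**
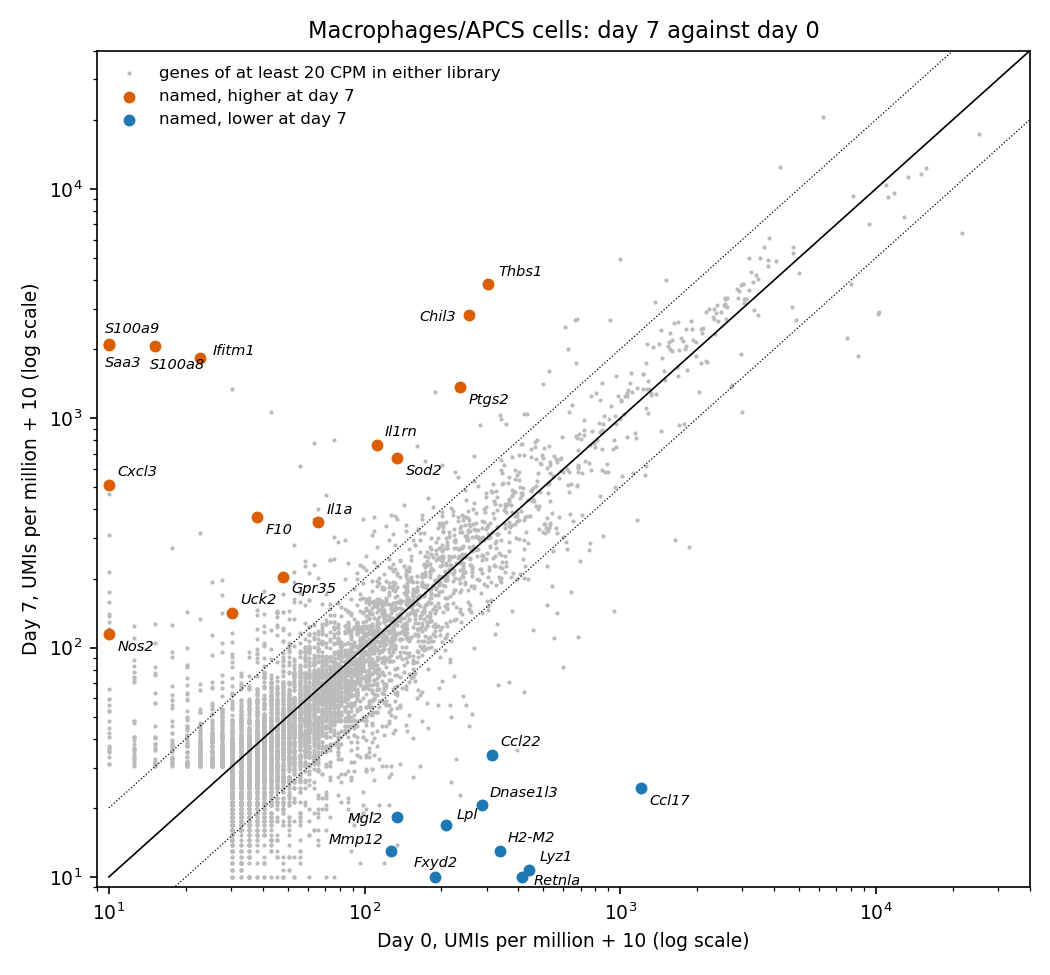
Each point is a gene of the Macrophages/APCS cells, with its summed level at day 0 (x) and day 7 (y) in CPM plus 10, on log axes. The solid line marks equal levels and the dotted lines a log2 ratio of 1 either way, and coloured points are the genes named by a fixed rule of size. Thbs1 and Chil3 lie far above the line at high levels (3831 and 2802 CPM at day 7), and Ccl17, Retnla and Lyz1 lie farthest below it.

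Genes of monocytes had the highest median of the 16 gene lists at day 7. Of 16 genes of monocytes and inflammatory macrophages, 11 were higher by the ratio and 0 lower, with a median log2 ratio of 1.96. The background for the gene lists is 10066 genes of at least 5 CPM, of which 3.75% were higher and 6.92% lower, with a median of -0.19. Without sub-clusters 5 and 6 the median of the list was 1.80. In the 6 other classes with at least 50 cells on both days the median of this list was above 0 too, from 0.26 in fibroblasts to 1.38 in endothelial cells. Thbs1 (chromosome 2, 118111876 to 118127133), a matrix protein that blocks the growth of vessels, stood at 295 (interval 244 to 354), 3831 (3727 to 3938) and 456 CPM (348 to 587), a log2 ratio of 3.66 at day 7. It was high at day 7 only, and 204 of the 278 cells had a UMI of it. Chil3 (chromosome 3, 106147554 to 106167564) stood at 246 (199.9 to 301), 2802 (2713 to 2894) and 98.8 CPM (52.6 to 169), a log2 ratio of 3.45. Its day 7 UMIs were spread over 171 cells, and the 10 cells with most held 22.4% of them. At day 0 it was in 11 cells, 10 of which held 99.0%. Chil4 is a close copy of Chil3, and their counts may share reads.

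Other monocyte genes were higher too. F10, which encodes coagulation factor X, stood at 27.9, 361 and 22.8 CPM on the 3 days, a log2 ratio of 3.29 at day 7. Sub-cluster 5 held 177 of the 479 day 7 myeloid UMIs of F10. Hp, haptoglobin, stood at 66.1, 794 and 60.8 CPM, but neutrophils held more of it at day 7 (2269 CPM). Vcan, the proteoglycan versican, stood at 43.2, 271 and 22.8 CPM, and F13a1, the coagulation factor XIII A chain, at 63.5, 229.9 and 22.8 CPM. The myeloid cells held 78.8% of all F13a1 UMIs of the day 7 library and the neutrophils 3.6%. Ccr2, the receptor by which monocytes leave the marrow, did not share this pattern, with 445, 489 and 334 CPM. Ly6c2, a surface protein of classical monocytes, stood at 158, 175 and 304.0 CPM. Their log2 ratios were 0.13 and 0.14. A UMI of Chil3, Vcan, Hp or F13a1 was present in 24 of 91 cells at day 0 (26.4%) and in 208 of 278 at day 7 (74.8%, 69.3 to 79.8). Thinned to 1000 UMIs a cell, which leaves out 13 shallower cells on each of these days, the shares were 15.4% and 67.5%. Cells with a UMI of C1q as well numbered 8 at day 0 and 31 at day 7, or 2 and 17 after thinning, so cells with either kind of gene were not separate sets. In T cells of day 7 the share was 4.24% before thinning. Fibroblasts, which make versican, had 66.5%, but only 1.27% of them had a UMI of Chil3, against 61.5% of the myeloid cells.

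**Figure D3:**
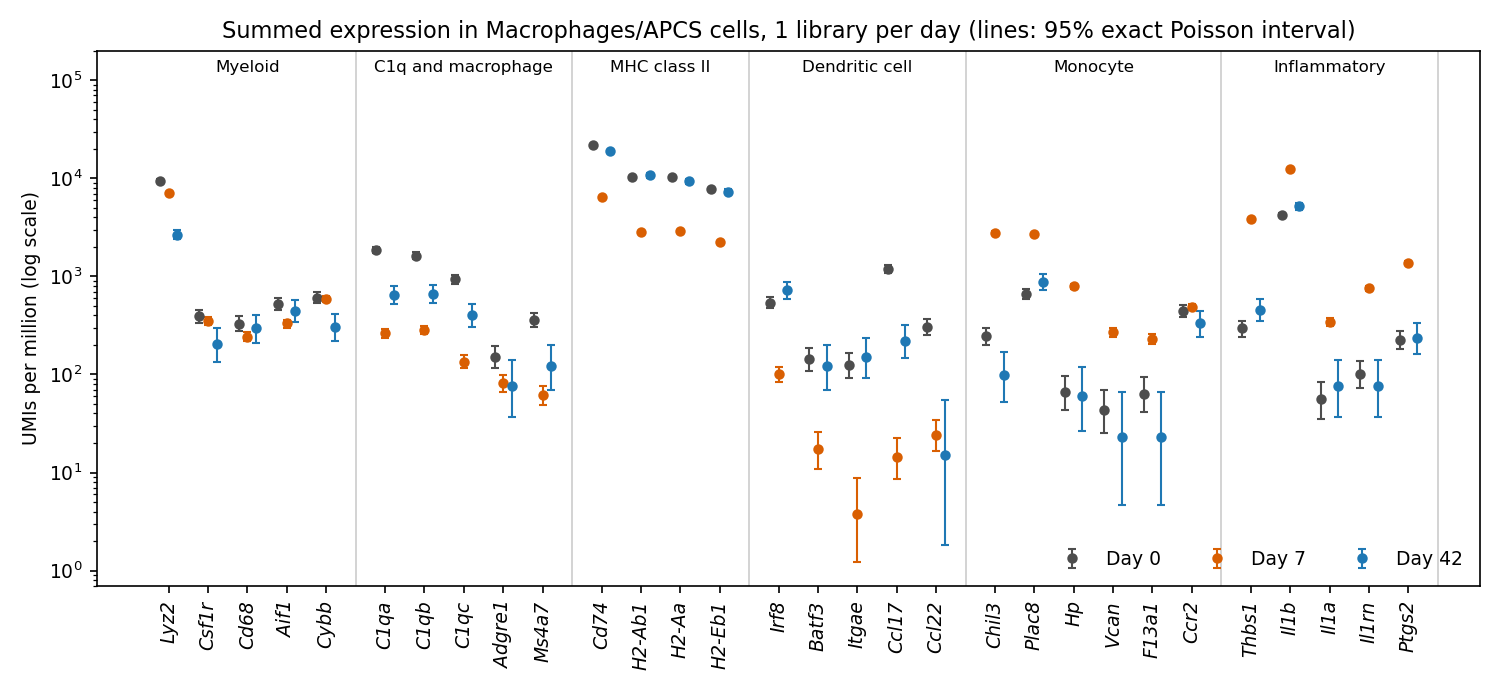
Summed level of the genes shown in the Macrophages/APCS cells on a log axis, in CPM, with 95% exact Poisson intervals. Each colour is the library of 1 day. C1q, MHC class II and dendritic cell genes are lowest at day 7 except Ccl22, whose day 42 level (15.2 CPM) has a wide interval, while the 6 monocyte and 5 inflammatory genes shown are highest at day 7, Ccr2 with overlapping intervals.

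The inflammatory cytokine list had a median of 1.56, with 9 of 13 measured genes higher and 1 lower at day 7 (1.08 without sub-clusters 5 and 6). In the same 6 other classes its median ran from 0.49 in keratinocytes to 3.61 in T cells, where 6 of 7 measured genes were higher. Il1b (chromosome 2, 129364570 to 129371139), which encodes interleukin 1 beta, stood at 4198 (3998 to 4405), 12398 (12209 to 12589) and 5176 CPM (4795 to 5580). A UMI of it was present in 72.5% of myeloid cells at day 0 and in 96.4% at day 7, or 65.4% and 94.0% after thinning. In the untreated library the myeloid cells held 78.9% of all Il1b UMIs, and at day 7 they held 21.5% while the neutrophils held 61.8%. The summed level at day 7 was 12398 CPM in the myeloid cells and 11232 CPM in the neutrophils. Il1a stood at 55.9, 342 and 76.0 CPM, a log2 ratio of 2.42, or 1.29 without sub-clusters 5 and 6. Il1rn, the antagonist of the interleukin 1 receptor, stood at 102, 756 and 76.0 CPM and was above every other class at day 7, with neutrophils next at 441 CPM. Ptgs2, the inducible enzyme of prostaglandin synthesis, stood at 226, 1357 and 236 CPM, and its log2 ratio was 2.53. Of the day 7 myeloid UMIs, 729 of 1800 for Ptgs2 and 396 of 1003 for Il1rn lay in sub-cluster 5. Nlrp3, the sensor of the inflammasome that matures interleukin 1 beta, stood at 221, 544 and 144 CPM.

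Sod2, the mitochondrial superoxide dismutase, Uck2, a kinase of pyrimidine salvage, and Gpr35, an orphan receptor of gut leukocytes, were the remaining named genes higher at day 7. They stood at 657, 132 and 194 CPM, against 125, 20.3 and 38.1 at day 0.

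Some genes of the cytokine list came from few cells. Nos2, the inducible nitric oxide synthase, had 0 UMIs at day 0 and 138 at day 7 (104 CPM, 13.6-fold the limit that a count of 0 allows, 3 UMIs or 7.62 CPM). It was in 18 cells, and 124 of the 138 UMIs lay in sub-cluster 5, and the log2 ratio was 0.56 without sub-clusters 5 and 6, against 3.51 with them. Il23a, a subunit of interleukin 23, had 2 UMIs at day 0 and 63 at day 7, 46 of them in sub-cluster 5. Il10, an anti-inflammatory cytokine, had 6 and 59 UMIs, 46 of them in sub-cluster 5. That sub-cluster is 10.1% of the day 7 myeloid cells. Il12b, the shared subunit of interleukins 12 and 23, lay almost wholly in this class, which held 47 of the 48 UMIs of the day 7 library (97.9%), but in only 5 cells. At day 0 a single cell held all 12. Tnf stood at 170 and 264 CPM at days 0 and 7, with 154 of its 350 day 7 UMIs in sub-cluster 5, and Osm, oncostatin M, at 163 and 204 CPM. Both log2 ratios were below 1.

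**Figure D4:**
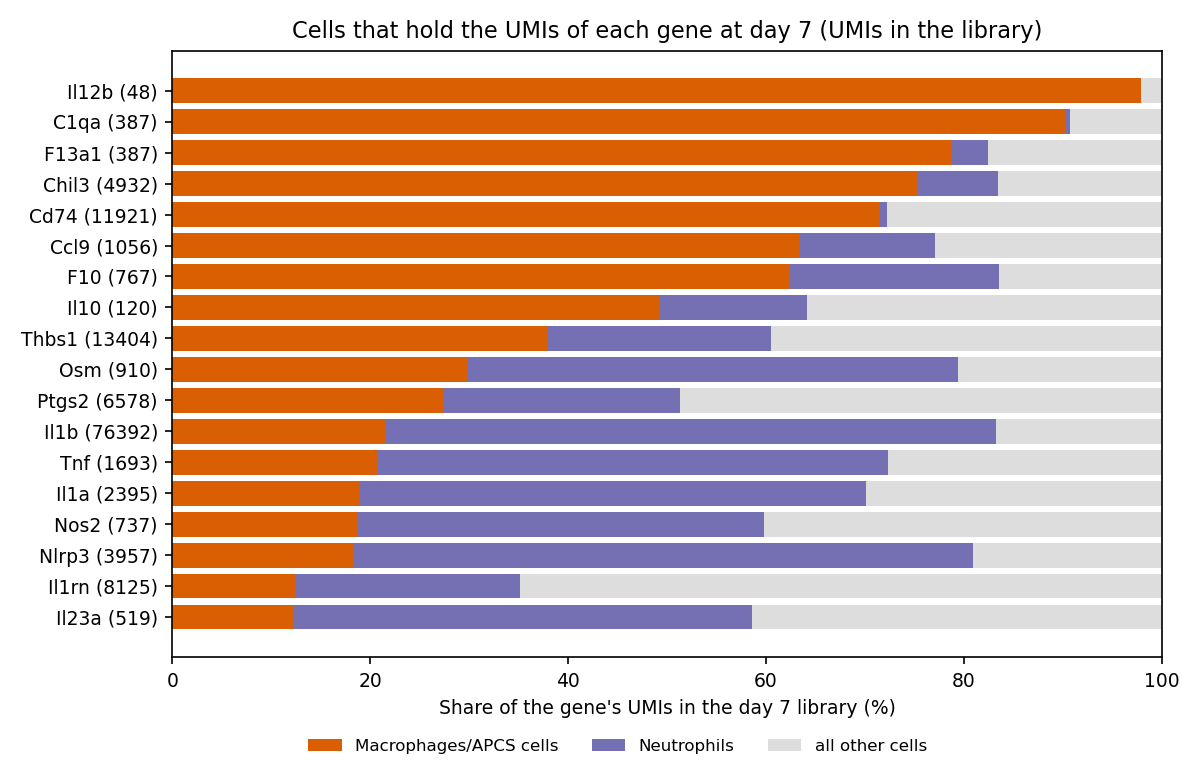
For 18 genes, the percent of all UMIs in the day 7 library that lay in Macrophages/APCS cells, in neutrophils and in all other cells, with the number of UMIs in brackets. The myeloid cells hold most of the UMIs of Il12b, C1qa, F13a1, Chil3, Cd74, Ccl9 and F10, whereas neutrophils hold more of Il1b, Tnf, Il1a, Nlrp3, Il23a, Nos2 and Osm.

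Chemokines, the attractants of other leukocytes, had no common direction. Of 20, 5 were higher and 7 lower at day 7, and the median was -0.34. Ccl17 (chromosome 8, 94810453 to 94812036), a dendritic cell chemokine that attracts T cells through Ccr4, had the lowest ratio of the named genes. It stood at 1192 (1086 to 1305), 14.3 (8.62 to 22.4) and 220.4 CPM (148 to 317), a log2 ratio of -5.63 at day 7. At day 0 it was in 23.1% of cells, and 1 cell held 40.3% of its UMIs. Without the 10 cells with most Ccl17 on each day the log2 ratio was -2.91. Only 5 cells of day 7 had a UMI of Ccl17, so this sets its day 7 level to 0 and fixes the sign in advance. Ccl22, the neighbouring gene with the same receptor, stood at 305, 24.1 and 15.2 CPM. Pf4, a chemokine of platelets and macrophages, stood at 676, 101 and 15.2 CPM. Ccl24, an attractant of eosinophils, stood at 86.4, 1.51 and 22.8 CPM. Cxcl2, a neutrophil attractant, was higher at day 7, with 988, 4929 and 258 CPM, but neutrophils themselves held 12525 CPM, and 3198 of its 6538 day 7 UMIs in the myeloid cells lay in sub-cluster 5. Ccl4 stood at 53.4, 767 and 236 CPM, and 757 of its 1017 day 7 UMIs lay in sub-cluster 5. Cxcl3 had 0 UMIs at day 0 and 667 at day 7 (66.0-fold the limit for a count of 0), 514 of them in sub-cluster 5. Ccl9 stood at 307, 505 and 236 CPM, and the myeloid cells held 63.4% of its UMIs at day 7.

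Among the 8 measured chemokine receptors, 2 were higher, 2 lower, and the median was -0.34 (0.075 with totals that leave out mitochondrial and ribosomal protein genes). Cx3cr1, the fractalkine receptor of resident intestinal macrophages, stood at 158, 37.7 and 22.8 CPM. Ccr1, a receptor for inflammatory chemokines, stood at 135, 332 and 137 CPM, and neutrophils held 498 CPM of it at day 7. Ccr7, which guides mature dendritic cells to lymph nodes, stood at 178, 103 and 114 CPM, a log2 ratio of -0.74 at day 7.

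Genes of MHC class II presentation were mostly lower at day 7. Of 11 genes, 0 were higher and 9 lower, with a median of -1.41, or -1.23 without sub-clusters 5 and 6. H2-Aa and H2-Ab1, the chains of the I-A molecule, stood at 10316, 2899.5 and 9304 CPM and at 10210, 2837 and 10709.9 CPM. H2-Eb1 stood at 7707, 2223 and 7327 CPM. H2-DMa, which helps load the peptide, stood at 844, 298 and 783 CPM, and Ciita, the master activator of these genes, at 112, 46.0 and 266 CPM. Each of these 5 genes was lowest at day 7. Ctss, the cathepsin that cuts the invariant chain, was an exception, with 1219.7, 1556 and 1231 CPM. The share of cells with a UMI of H2-Ab1 was 81.3%, 49.3% and 86.4%, and thinned to 1000 UMIs it was 84.6%, 42.6% and 84.2%. In T cells it was 2.28%, 5.08% and 2.48% before thinning. Cd74 was still within these cells at day 7, which held 71.5% of all Cd74 UMIs of that library. The co-stimulation median was -0.03. Of 9 genes, 1 was higher and 0 were lower, and Cd86, a ligand of the T cell receptor CD28, stood at 259, 176 and 220.4 CPM.

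Of 19 scavenging and complement genes, 10 were lower at day 7 and 2 higher, with a median of -1.03. C1qc stood at 938, 135 and 403 CPM, next to C1qa and C1qb above, and the log2 ratios at day 7 were -2.71 for C1qc, -2.77 for C1qa and -2.47 for C1qb. Mrc1, the mannose receptor, stood at 219, 22.6 and 15.2 CPM, and Cd36, a lipid scavenger receptor, at 109, 1.51 and 7.60 CPM. Axl, a receptor for dying cells, stood at 127, 21.1 and 76.0 CPM. Msr1, scavenger receptor A, was higher, with 63.5, 145 and 30.4 CPM, and so was C5ar1, the receptor for C5a, with 53.4, 219 and 38.0 CPM, although neutrophils held 470.4 CPM of C5ar1. Trem2 was at 168, 95.7 and 83.6 CPM.

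The resident macrophage list had 11 of 15 genes lower and 1 higher (Il10), with a median of -1.18. It shares C1qa, Mrc1 and Cd163 with the complement and scavenging list. Apoe, apolipoprotein E, stood at 7961, 3829.8 and 1801 CPM, and Pltp, which transfers phospholipids, at 158, 54.3 and 129 CPM. Folr2 and Lyve1, markers of long-lived tissue macrophages, had only 5 and 6 UMIs at day 0 and 0 at day 7. The macrophage-like sub-cluster 4, with 32 of its 45 cells from day 0, was led by C1q, Pf4, Ms4a7, Lyz1, Fxyd2, Dnase1l3, Cd81 and Lpl. Several of the named genes lower at day 7 led it. Lyz1, the Paneth cell lysozyme gene next to Lyz2, had 169 UMIs at day 0 and 1 at day 7. Dnase1l3, a nuclease for extracellular chromatin, had 109 and 14 UMIs, and Fxyd2, a subunit of the sodium pump, 70 and 0 (day 0 level 78.6-fold the limit for a count of 0). H2-M2 had 129 and 4 UMIs, Lpl, lipoprotein lipase, 78 and 9, and Mmp12, the macrophage elastase, 46 and 4. These genes rested on few cells, since the 10 cells with most held 82.6% to 94.3% of the day 0 UMIs of these 6 genes. Retnla, resistin-like alpha, had 158 UMIs in 3 cells at day 0, 101 of them in 1 cell, and 0 at day 7. Lyz1 and Lyz2 are close copies and their counts may share reads.

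Markers of conventional type 1 dendritic cells, which present antigen to CD8 T cells, were all lower at day 7, 9 of 9 by the ratio, with a median of -2.27. Xcr1 had 15, 0 and 9 UMIs on the 3 days (38.1, 0 and 68.4 CPM). Its day 0 level was 16.9-fold the limit for a count of 0 at day 7. Clec9a, the receptor by which these cells sense dead cells, had 13, 4 and 5 UMIs. Irf8, a transcription factor they need, stood at 541, 100.3 and 722 CPM, Batf3 at 145, 17.3 and 122 CPM and Itgae, which encodes CD103, at 125, 3.77 and 152 CPM. For type 2 dendritic cells 4 of 9 were lower and 0 higher. Mgl2, a lectin of type 2 dendritic cells and macrophages, stood at 125, 8.29 and 160 CPM, while Sirpa was at 236, 180 and 106 CPM. Of the mature dendritic cell markers, Ccl22 was lower and Fscn1 higher among 8. The plasmacytoid markers Siglech and Ccr9 had 31 and 26 UMIs at day 42 in 44 cells (236 and 198 CPM), against 10 and 1 at day 0 and 5 each at day 7. At day 42 the cell with most held 41.9% of the Siglech and 46.2% of the Ccr9 UMIs. Bst2, Cox6a2 and Klk1 were also highest at day 42 (372, 68.4 and 98.8 CPM). Tcf4 stood at 107, 94.2 and 122 CPM, and Runx2 was highest at day 7 (42.2 CPM, against 22.8 at day 42). Siglech was in 5 of 91, 4 of 278 and 6 of 44 cells, or 5.49% (1.81 to 12.4), 1.44% (0.393 to 3.64) and 13.6% (5.17 to 27.4), and the intervals of days 0 and 42 overlap.

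**Figure D5:**
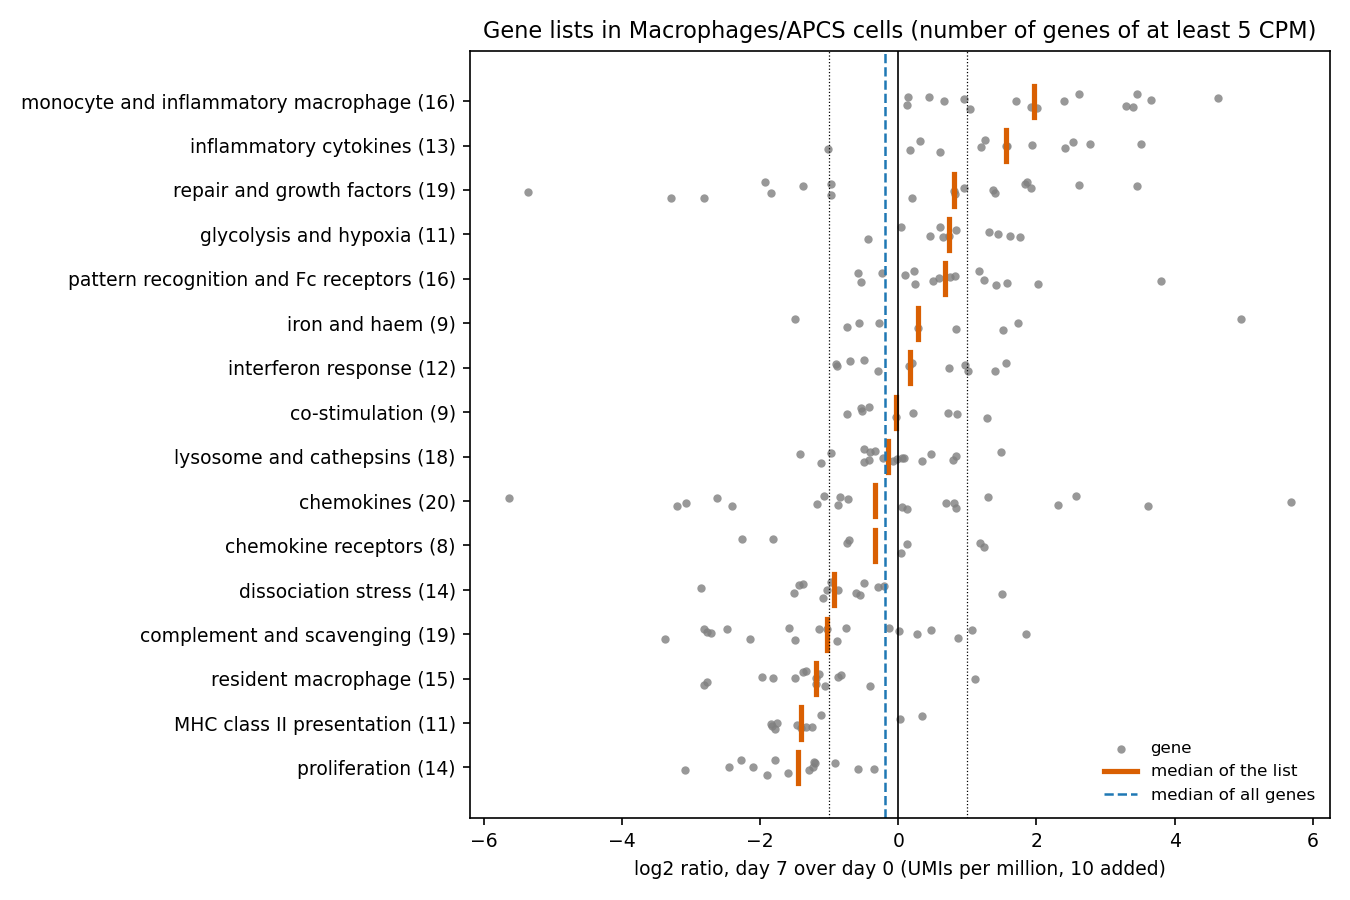
Log2 ratio of day 7 over day 0 for each member (grey points) of 16 gene lists in the Macrophages/APCS cells, with 10 CPM added, and the median of each list (orange bars). The dashed line is the median of all genes of at least 5 CPM (-0.19). Monocyte and cytokine genes lie to the right (medians 1.96 and 1.56) and proliferation, MHC class II and resident macrophage genes to the left (-1.44, -1.41 and -1.18).

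Of 16 receptors for microbial products and antibodies, 6 were higher at day 7 and 0 lower, with a median of 0.68. Cd14, the co-receptor for lipopolysaccharide, stood at 599.7, 2479.6 and 502 CPM, with 4337 CPM in the neutrophils at day 7. Fcgr1, the high-affinity receptor for IgG, stood at 35.6, 126 and 60.8 CPM and at day 7 these cells held 84.8% of its UMIs in the library, against 1.02% in neutrophils. Clec4e, which encodes Mincle and belongs to the monocyte list, stood at 33.0, 1054 and 45.6 CPM, below the 1736 CPM of neutrophils. Among iron genes 3 of 9 were higher and 1 lower. Fth1, ferritin heavy chain, stood at 6205, 20637 and 8475 CPM, and Hmox1, the enzyme that breaks down haem, at 40.7, 135 and 7.60 CPM. Sub-cluster 5 held 7938 of the 27373 day 7 myeloid UMIs of Fth1 and 71 of the 179 of Hmox1. Interferon response genes were higher for 3 of 12, with 0 lower and a median of 0.18, which was -0.26 as a mean over cells. Ifitm3 stood at 899.5, 2669 and 1231 CPM. Among glycolysis and hypoxia genes 4 of 11 were higher and 0 lower. Hif1a, the transcription factor of the hypoxia response, stood at 99.1, 360 and 160 CPM, and Pkm, pyruvate kinase, at 412, 1035 and 464 CPM. Of 18 lysosome genes 1 was higher and 2 lower, with a median of -0.14 (0.010 with median-of-ratios scaling).

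Of 19 repair and growth factor genes, 7 were higher and 6 lower at day 7, with a median of 0.80. Vegfa, the vascular growth factor, stood at 50.8, 151 and 160 CPM, and Mmp14, a membrane-bound collagenase, at 43.2, 184 and 106 CPM. Tgfbi, an extracellular matrix protein induced by TGF beta, stood at 661, 1730.2 and 714 CPM. Igf1, a growth factor of resident macrophages, had 11 UMIs at day 0 and 0 at day 7 (day 0 level 12.4-fold the limit for a count of 0). Tgfb1 was at 399, 461 and 380.1 CPM.

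Proliferation genes had the lowest median of the 16 gene lists, -1.44, with 11 of 14 lower and 0 higher. Mki67 stood at 155, 20.4 and 236 CPM and Top2a at 78.8, 8.29 and 182 CPM, so both were lowest at day 7. Stmn1 stood at 208, 15.8 and 281 CPM. Keratinocytes of the day 7 library held 152 CPM of Mki67, above the 20.4 CPM in these cells. The dissociation stress list, whose genes respond to enzymatic digestion, was lower for 6 of 14 and higher for 1 (Ier3), with a median of -0.92. Atf3 stood at 587, 72.4 and 266 CPM, while Ier3 stood at 490.4, 1406 and 152 CPM. The part of such a response in the other lists was not tested.

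The 5 genes with the highest log2 ratios of all, without regard to other classes, were Saa3 (7.71), S100a9 (7.70), S100a8 (7.09), Ifitm1 (6.34) and Cxcl3 (5.68), and each was higher in another class of the library. Saa3, an acute phase protein, had 0 UMIs at day 0 and 2773 at day 7 (274-fold the limit for a count of 0). The myeloid cells held 26.6% of its UMIs, with fibroblasts the largest holder. Sub-cluster 5 held 1778 of the 2773 UMIs, and without sub-clusters 5 and 6 the log2 ratio of Saa3 was 6.46, that of S100a9 6.20, that of S100a8 6.21 and that of Cxcl3 3.52. S100a8 and S100a9, the calprotectin subunits that fill neutrophils, had 2 and 0 UMIs at day 0 and 2718 and 2745 at day 7. In the myeloid cells of day 7 their levels were 2.29% and 1.63% of those in neutrophils. S100a9 was detected in 37.8% of myeloid cells, against 43.0% of fibroblasts and 32.2% of T cells in the same library, which should lack it, at median depths of 4913, 5015 and 2260 UMIs. Thinned to 1000 UMIs, 34 of 265, 49 of 283 and 14 of 108 cells had it, so the share in the myeloid cells as a whole was not above that in cells that should lack it. Sub-cluster 5 held 1904 of the 2745 S100a9 UMIs, with a UMI in 46.4% of its cells, and 1452 of the 2718 S100a8 UMIs. The 10 myeloid cells with most held 93.8% of the S100a9 UMIs. Keratin 14 (Krt14) stood at 45.7, 608 and 372 CPM in the myeloid cells, and at 840 CPM in the neutrophils of day 7. At day 7 Il1b, by contrast, was in 96.4% of myeloid cells, 8.86% of fibroblasts and 15.3% of T cells, and Chil3 in 61.5%, 1.27% and 0 of 118 T cells (up to 3.08% for a count of 0).

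Against the neutrophils of the same library, the myeloid cells of day 7 had 1832 of 5193 genes higher (35.3%) and 428 lower (8.24%) by a log2 ratio of 1 or more, and the median was 0.69. Median-of-ratios scaling turned this to 581 higher and 1115 lower with a median of -0.22, so the balance between the classes depends on the scaling. Both classes were named by the authors from these cells, and the comparison is a description. Among the 10 genes most above the neutrophils were H2-Aa, Cd74, H2-Ab1, H2-Eb1, S100a4, Ms4a6c, Ccr2, Fn1 and Lgmn. Cd74 was 325-fold above the neutrophil level of 19.8 CPM, and Ccr2 was at 489 CPM against 0.952. Lyz2 was at 7030.2 CPM in the myeloid cells and 1067 in the neutrophils, and Thbs1 at 3831 and 719 CPM. The 10 genes most below were Retnlg, S100a9, Gm5483, Ngp, G0s2, S100a8, Prok2, Stfa2l1, Chil1 and Mrgpra2b, genes of neutrophil granules and cytosol among them. Retnlg was at 456 CPM in the myeloid cells and 28957 in the neutrophils, and 536 of its 605 myeloid UMIs lay in sub-cluster 5. Stfa2l1 and Gm5483 belong to the stefin family of near copies, so their counts are uncertain.

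The 44 cells of day 42 are given as levels. Cd74 stood at 18851 CPM (18116 to 19607). Chil3, Hp, Vcan and F13a1 stood at 98.8, 60.8, 22.8 and 22.8 CPM, from 13, 8, 3 and 3 UMIs. C1qa stood at 654 CPM (523 to 807). Sub-cluster 2 held 25 of the 44 cells (56.8%, 41.0 to 71.7). Il1b stood at 5176 CPM in these cells and at 15778 CPM in the neutrophils of the library. Cxcl9 and Cxcl10, chemokines induced by interferon gamma, stood at 395 and 502 CPM, and Cxcl9 had UMIs in only 6.82% of the cells.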

How the data were processed

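Counts of UMIs per gene and cell were deposited by the authors as 1 matrix over 3 libraries, with each cell's day, cluster, cell type name and size factor. The size factor is a ratio, and in the deposited table it equals a cell's total UMIs divided by 5283, the geometric mean of all totals. Cell Ranger 3.0.2 and mm10 are named in the submitters' processing notes. No further filter on cells was applied. More than 20% of a cell's UMIs were mitochondrial in 19.8%, 8.27% and 6.82% of the myeloid cells on days 0, 7 and 42.

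The counts of the myeloid cells of a day were summed and divided by their total (CPM). Log2 ratios add 10 CPM, counts of genes use at least 20 CPM, and gene lists at least 5 CPM, in either library. With 1 pool per day no test was run. Poisson and binomial (Clopper-Pearson) intervals at 95% and the limit of 3 counts for a 0 cover counting error only. A fold against that limit takes the measured level as it stands and leaves out its own counting error. Named genes were the 10 highest and lowest ratios among genes of at least 100 CPM that were also above every other class of at least 50 cells, the 5 highest and lowest of all, the 20 that set the class apart, the 10 highest and lowest against neutrophils, and list members, leaving out mitochondrial, ribosomal protein, haemoglobin and immunoglobulin genes. The members and lists were chosen with earlier results of these data known. Intervals came from scipy 1.17.1 and sub-clusters from scanpy 1.11.5 (1500 variable genes without the markers of other classes, 20 principal components, Leiden resolution 0.6). Scrublet called 0 doublets at day 7, so there the 676 cells (4.70%) with the highest scores were left out in an alternative, as were the called cells on the other days. They included 11 myeloid cells of day 7 and 0 of the other days. Of 362 listed symbols, 4 (Aldoa, Ccl21a, Clec7a and Ifi30) matched no gene or several and were left out. A few genes counted in the lists are not reported here by name. Coordinates are from the GENCODE annotation of the same build.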

Additional observations from a re-analysis of the deposited data

Results flagged for a closer look

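Some gene lists had a median log2 ratio of one sign in the myeloid cells and the opposite sign in another class of cells between the same 2 libraries, both at least 0.5 in size. The difference was not tested in any of these cases, since each day has 1 library. The MHC class II median was -1.41 in the myeloid cells, against 0.93 in colonocytes, 0.70 in endothelial cells, 0.84 in fibroblasts and 1.66 in lymphatic cells. These 4 classes had only 6, 7, 5 and 5 measured genes, with 3, 2, 0 and 4 higher by the ratio. The list summed to 53102 and 16646 CPM in the myeloid cells at days 0 and 7. In no other class of at least 50 cells did it exceed 220 and 559 CPM. The complement and scavenging median was -1.03 in the myeloid cells and 0.64 in colonocytes. The proliferation median was -1.44 in the myeloid cells, against 1.28 in endothelial cells, 0.89 in fibroblasts, 0.70 in keratinocytes and 1.10 in lymphatic cells, while it was -0.67 in colonocytes and -0.92 in T cells. The dissociation stress median was -0.92 in the myeloid cells and 1.24 in lymphatic cells, while it was -1.27 in endothelial cells and -1.01 in fibroblasts. Chemokines were below that size in the myeloid cells (-0.34), against 1.01 in colonocytes, 1.23 in endothelial cells, 1.10 in fibroblasts, 0.87 in keratinocytes, 1.92 in lymphatic cells and 1.84 in T cells.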

How the results depend on the processing

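No paired analysis was possible because each day is 1 library and no result comes from a test. Of 44 named genes, none took the opposite sign under the 9 alternatives run, although Nos2 came to 0 without cells that carry UMIs of other classes and Retnla to 0 without its top cells. These 44 are not all of the named genes, so the signs of the rest are not covered. Leaving out, for each gene, the 10 cells with most UMIs moved 41 of 44 by more than their counting interval, and leaving out cells with UMIs of other classes moved 32. The former sets a gene to 0 on a day when at most 10 cells have a UMI of it. If that is its lower day, its sign cannot turn. All 10 genes named as above every other class and lower at day 7 are of this kind, with a UMI in at most 6 cells there. Day 42, with 131561 UMIs, allows up to 22.8 CPM for a gene without a UMI.

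The cause of the following shifts was not tested, except where fewer genes or cells enter by construction. The filter on cells (at least 1000 UMIs and 500 genes, at most 20% mitochondrial) took the day 7 share to 2.21%. Shares of leukocytes were 28.4%, 14.5% and 7.06%. Adding 1 CPM gave 925 lower genes, a resident macrophage median of -2.03 and a proliferation median of -2.37. A minimum of 100 CPM gave 157 higher and 132 lower. Leaving out cells with at least 3 UMIs from at least 2 lists of other classes (31, 250 and 23 cells) gave 833 higher and 1359 lower, 683 genes lower than in neutrophils, and medians of -1.86 for MHC class II, 0.91 for co-stimulation and 0.089 for lysosome, the last of the opposite sign. Fewer than 50 myeloid cells of day 7 remained in that alternative. Against neutrophils, median-of-ratios scaling gave 581 higher and 1115 lower, and totals without mitochondrial and ribosomal protein genes 2800 higher. Other medians turned sign for chemokine receptors (0.075 with those totals, 0.084 with all members), lysosome (0.010, median-of-ratios) and interferon response (-0.26, mean over cells, which also took proliferation to -0.89).

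Thinned to 500 UMIs, C1q shares at day 7 were 11.5%, Chil3, Vcan, Hp or F13a1 12.1% at day 0 and 54.3% at day 7, Cd74 47.1% at day 7, and Lyz2 59.3%, 69.4% and 36.4%. Thinned to 1000, the monocyte shares were 15.4% and 67.5%, Cd74 50.9% and Lyz2 77.4% at day 7. At resolution 0.3, sub-clusters 1 and 3 best matched a single group of 52.1%, and 5 and 6 one of 12.8%. At 1.2, sub-clusters 1, 2 and 3 took 13.6%, 10.4% and 10.7%. With 2500 variable genes, 1, 2, 3 and 5 took 18.4%, 20.3%, 24.5% and 9.69%. Leaving out sub-clusters 5 and 6 was chosen after seeing the data.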

Other observations

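One myeloid cell of day 7, in sub-cluster 3, had 14561 UMIs, the most of any myeloid cell of that day, and held 101 of the 104 Ctsk UMIs in the myeloid cells of its library. It also held 108 UMIs of Mmp9, against 25 in all other myeloid cells of that day, and 248 of Acp5, against 282. Atp6v0d2 had 9 UMIs in this cell and 0 in the others, Dcstamp 6 and 1, Ocstamp 8 and 46, and Nfatc1 15 and 40. Ctsk, Acp5, Mmp9, Atp6v0d2, Dcstamp and Ocstamp are known, as background, from osteoclasts and other fused macrophages. The cell had 15 UMIs of Csf1r, 5 of Cd74, 0 of Lyz2 and 0 of C1qa. These genes were chosen after their values were seen, and 1 cell supports no statement about a population.

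Cd207, which encodes langerin of Langerhans cells, had 16, 9 and 7 UMIs in the myeloid cells on the 3 days, in 3.30%, 0.719% and 4.55% of the cells, and 31 of these 32 UMIs lay in sub-cluster 2.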
